A study of Mus musculus with 8 samples.

Results

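Keratins 7, 8, 18 and 19 (Krt7, Krt8, Krt18, Krt19) and the uroplakins Upk1a, Upk1b, Upk2 and Upk3a are 8 of the 24151 genes in these embryonic mouse kidney libraries. They were chosen by symbol, as keratins of simple epithelia and the plaque proteins of urothelium, and each was represented by 1 RefSeq transcript in the files. All 8 libraries come from the outbred ICR stock. Pregnant females, mated at 8 weeks, received either chlorpyrifos (CPF), an organophosphate insecticide, at 5 mg per kg in DMSO, or the same volume of DMSO alone, by daily subcutaneous injection over gestation days 7.5 to 11.5. Both groups of mothers therefore carried the solvent and the injections. Kidneys were taken every 2 days from E12.5 to E18.5, and each of the 4 stages has 1 CPF and 1 DMSO library. No label says how many embryos or litters a library pools. With 1 library per treatment and stage, the p-values below rest on how far libraries depart from the fitted stage and treatment terms, not on replicates. Those departures may hold technical spread and treatment differences that vary with stage, which the design cannot separate. For slopes they are departures from straight lines over embryonic day.

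Keratins form intermediate filaments from pairs of a type I and a type II chain. Krt8 (type II) and Krt18 (type I) are the pair found first and most widely in simple epithelia, and Krt7 (type II) and Krt19 (type I) join them in ducts and in urothelium. Uroplakins cover the luminal face of the urothelium, the lining of renal pelvis, ureter and bladder, in rigid plaques. The tetraspanin Upk1a pairs with Upk2 and the tetraspanin Upk1b pairs with Upk3a before the plaques are built. In the developing kidney the ureteric bud and collecting ducts, the pelvis and the outer mesothelium are among the epithelia where such genes are known.

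The deposited values are TPM, which are scaled to transcript length and to a library total of 1000000. Low values move in steps, from which a single read per kb of RNA was put at 0.0609 to 0.105 TPM; estimated read numbers below use this. The non-coding RNAs Rpph1 and Rmrp took 19.3 to 23.6% of the TPM in 6 libraries, 31.0% in DMSO E16.5 and 41.8% in DMSO E18.5. Since TPM has a fixed total, the other genes share what remains, and values scaled to coding transcripts are given where this matters. On the second principal component (24.8% of the variance of 2000 genes) CPF E14.5 and CPF E16.5 lay at 41.9 and 44.1, and the 6 others at -1.10 or below. Results that rest on these 2 libraries are given with and without them. In whole-organ RNA, fewer cells of a type and less RNA per cell cannot be told apart.

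Between E12.5 and E18.5, 7 of the 8 genes rose. The share of all 13677 tested genes that passed in that comparison was 8.40%, made up of 4.67% higher and 3.73% lower at E18.5. That is 639 genes higher and 510 lower, and with libraries scaled to coding transcripts it was 993 higher and 404 lower. The median of the 8 genes was 3.06 on the log2(TPM + 1) scale, against -0.21 over all tested genes. The 4 uroplakins differed by 3.20 to 5.92 and the 4 keratins by 0.59 to 2.92, and the families were not tested against each other. Upk2 and Upk3a passed the filter on low values, at least 1 TPM in 2 libraries, only through the later stages, so their place among the tested genes already implied a higher late level.

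**Figure D1:**
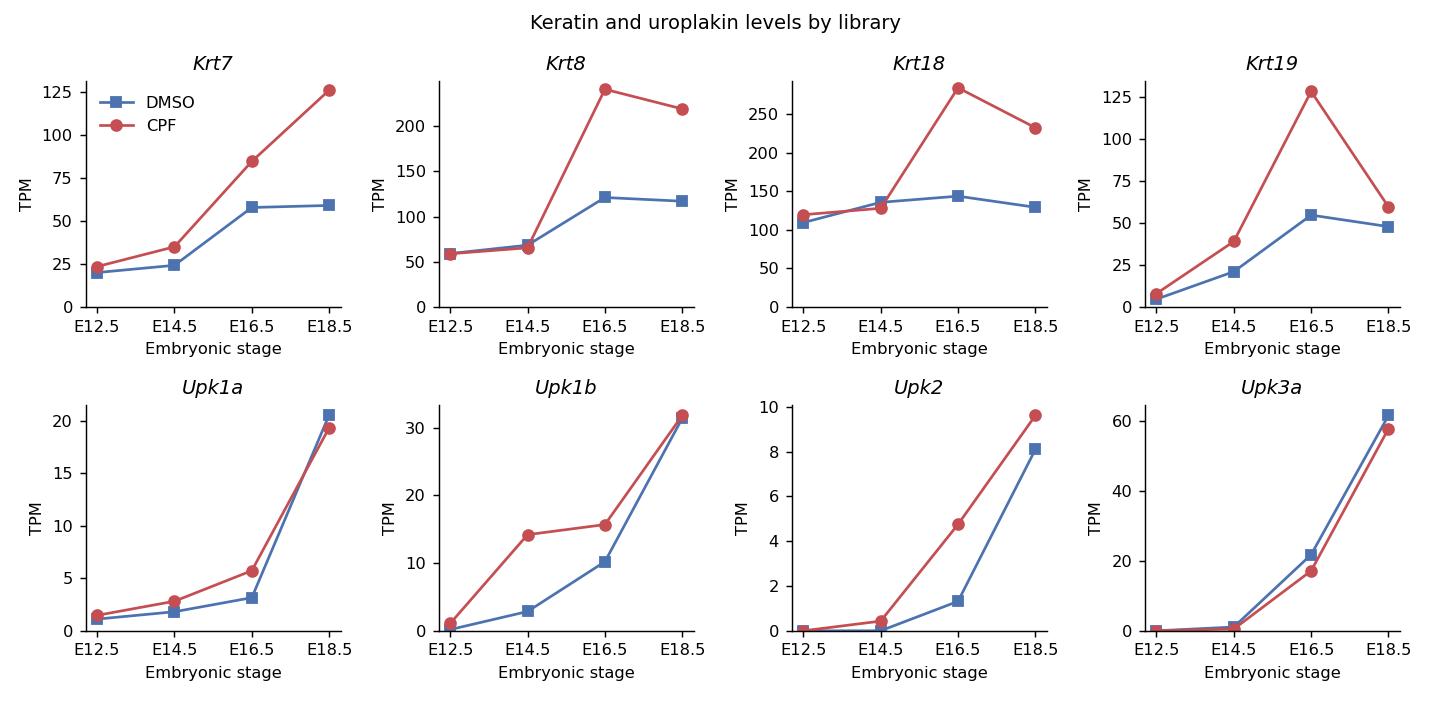
TPM (y axis, starting at 0, with a separate scale in each panel) of the 4 keratins and 4 uroplakins by embryonic stage (x axis) in DMSO (blue squares) and CPF (red circles) kidneys, 1 library per point. Keratins are already present at E12.5, Upk2 and Upk3a are listed at 0 there, and Krt8, Krt18 and Krt19 peak in the CPF library of E16.5.

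Krt18 was the highest of the 8 genes in every library. In stage order, it read 109, 136, 144 and 129 TPM in DMSO kidneys. CPF kidneys had 120, 128, 284 and 232 TPM. As deposited, the 4 DMSO values are close together, and the 2 late CPF values are well above the 6 others. On the coding scale the DMSO values were 101, 135, 157.5 and 168 TPM, higher at each later stage. The late CPF values were then 269.4 and 217.8 TPM, still the highest. The change of Krt18 from E12.5 to E18.5, 0.59 ± 0.33 (SE, 8 libraries) on the log2(TPM + 1) scale, did not pass limma (adjusted p = 0.281). With libraries scaled to coding transcripts it was 0.84 ± 0.25 and did not pass either (limma adjusted p = 0.0772).

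Krt8, the partner of Krt18, read 59.1, 68.4, 121 and 117 TPM in DMSO kidneys and 58.9, 65.4, 241 and 219 TPM in CPF kidneys. Every E16.5 and E18.5 library lies above every E12.5 and E14.5 library. Krt8 rose by 1.42 ± 0.33 (limma adjusted p = 0.0206). The call was lost without the CPF library of E12.5 (1.12, adjusted p = 0.113) or that of E18.5 (1.13, adjusted p = 0.109), and without both CPF E14.5 and CPF E16.5 (1.42, adjusted p = 0.138).

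Krt7, a type II keratin of ducts, read 20.0, 24.3, 57.9 and 59.0 TPM in DMSO kidneys and 23.5, 35.0, 84.6 and 126 TPM in CPF kidneys. As for Krt8, the 4 late libraries lie above the 4 early ones. Krt7 rose by 1.94 ± 0.32 (limma adjusted p = 0.00278). Krt19, the short type I keratin of ducts and urothelium, read 4.70, 21.1, 54.7 and 47.8 TPM in DMSO kidneys and 8.03, 39.0, 128 and 59.5 TPM in CPF kidneys. It started lowest of the keratins and had increased 4.48-fold in DMSO and 4.86-fold in CPF by E14.5, at which stage Krt8 had changed by 1.16-fold and 1.11-fold. Krt19 rose by 2.92 ± 0.34 from E12.5 to E18.5 (limma adjusted p = 0.000323), the largest keratin change among the 4.

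Krt8 and Krt18 are neighbours. On GRCm38, the assembly that mm10 names, Krt8 lies on chromosome 15 at 101996711 to 102004342 on the minus strand and Krt18 at 102028216 to 102032026 on the plus strand, so their starts face each other across 23873 bases. Krt7 is on the same chromosome at 101412403 to 101427806, and Krt19 is on chromosome 11 at 100140810 to 100145926. The 250 bases before the start of Krt8 and of Krt18 are shown because these genes are partners as well as neighbours, and those of Upk3a because it changed most. They are from the RefSeq promoter table of GRCm38.p6, which matched 5 of the 8 genes. Capitals mark matches on either strand to 5 motifs. These are the GC box GGGCGG, the core promoter element TATAAA, the grainyhead motif AACCNGTT, the forkhead motif TGTTTAC, and AGATAA, which is bound by factors of the family that includes Gata3.
Krt8, chr15:102004343-102004592, minus strand: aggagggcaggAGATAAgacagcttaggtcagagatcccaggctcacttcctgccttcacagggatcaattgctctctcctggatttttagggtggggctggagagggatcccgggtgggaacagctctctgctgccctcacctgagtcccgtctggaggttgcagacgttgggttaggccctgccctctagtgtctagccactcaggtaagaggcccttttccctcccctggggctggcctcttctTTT
Krt18, chr15:102027966-102028215, plus strand: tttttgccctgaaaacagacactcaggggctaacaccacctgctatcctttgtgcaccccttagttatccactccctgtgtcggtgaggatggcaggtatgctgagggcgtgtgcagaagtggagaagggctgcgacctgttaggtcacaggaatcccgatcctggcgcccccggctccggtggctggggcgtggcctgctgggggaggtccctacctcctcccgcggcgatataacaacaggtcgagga
Upk3a, chr15:85016891-85017140, plus strand: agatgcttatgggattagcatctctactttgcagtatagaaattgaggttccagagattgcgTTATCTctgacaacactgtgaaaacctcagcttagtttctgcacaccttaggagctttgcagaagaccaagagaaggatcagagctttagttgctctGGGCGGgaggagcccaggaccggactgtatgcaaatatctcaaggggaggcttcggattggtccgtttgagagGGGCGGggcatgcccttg
In the window of 250 bases before to 50 after the start, Krt8 held 1 AGATAA and a pair of overlapping TATAAA matches that straddle the annotated start, so that 3 letters of them (TTT) end the printed stretch. Krt18 held none of the 5 motifs. Upk3a held 2 GC boxes, at 91 and 18 bases before the start, and 1 AGATAA on the other strand. Upk1a held none of the 5, and Krt7 held 4 GC boxes and no other match. Of all 32851 promoters of the same length, 35.7% held GGGCGG, 13.6% TATAAA, 2.09% AACCNGTT, 3.65% TGTTTAC and 11.2% AGATAA.

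Within a library, the level of Krt8 relative to Krt18 differed more between stages than between treatments. In stage order, the ratio of their TPM was 0.541, 0.504, 0.842 and 0.905 in DMSO kidneys. In CPF kidneys it was 0.492, 0.512, 0.847 and 0.942. Both series step up between E14.5 and E16.5. The ratio of Krt19 to Krt18 went from 0.0430 to 0.370 in DMSO and from 0.0672 to 0.257 in CPF, with its highest value, 0.452, in CPF E16.5. Taking both type II keratins over both type I keratins, the ratio lay between 0.591 and 0.694 in the 4 libraries of E12.5 and E14.5, and between 0.789 and 1.18 in the 4 later ones.

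**Figure D2:**
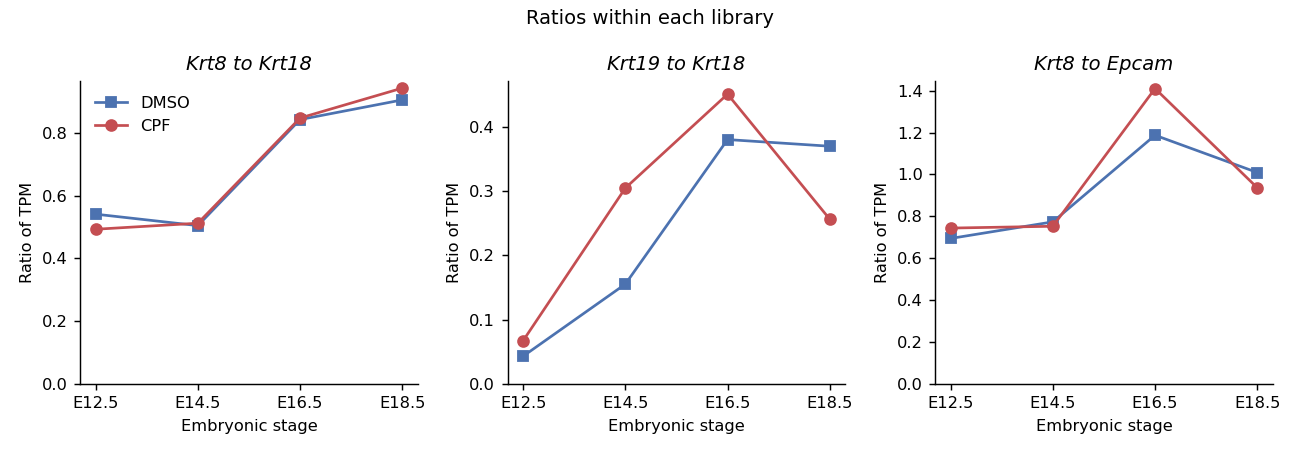
Ratio of TPM within each library (y axis, starting at 0) for Krt8 to Krt18, Krt19 to Krt18 and Krt8 to Epcam, by embryonic stage (x axis), in DMSO (blue squares) and CPF (red circles), 1 library per point. The Krt8 to Krt18 ratio steps from 0.492 to 0.541 at E12.5 up to 0.905 to 0.942 at E18.5, with the points of both treatments close together at each stage.

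Among the uroplakins, Upk3a, the single-pass partner of Upk1b, changed most. It was listed at 0 in both E12.5 libraries, where 3 reads would be worth 0.222 to 0.277 TPM. It then read 1.07, 21.8 and 61.6 TPM in DMSO kidneys and 0.512, 17.2 and 57.8 TPM in CPF kidneys. Both treatments read higher at each later stage, and DMSO was the higher at each of these 3 stages. Upk3a rose by 5.92 ± 0.40 (limma adjusted p = 7.81e-06). It lies on chromosome 15 at 85017141 to 85022560.

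Upk1b, on chromosome 16 at 38773182 to 38800203, read 0.183, 2.85, 10.2 and 31.4 TPM in DMSO kidneys and 1.09, 14.2, 15.7 and 31.8 TPM in CPF kidneys. The DMSO value at E12.5 corresponds to about 4 reads and the CPF value to about 20. The treatments lie apart at E12.5 and E14.5 and meet at E18.5. Upk1b rose by 4.37 ± 0.48 from E12.5 to E18.5 (limma adjusted p = 0.000193).

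Upk1a, on chromosome 7 at 30603092 to 30612734, read 1.11, 1.82, 3.16 and 20.6 TPM in DMSO kidneys and 1.47, 2.82, 5.73 and 19.4 TPM in CPF kidneys. Unlike Upk3a it was present at E12.5, at about 20 reads in each library, and most of its gain came after E16.5, 6.52-fold in DMSO and 3.38-fold in CPF. It rose by 3.20 ± 0.41 (limma adjusted p = 0.000579). Upk2, its partner, on chromosome 9 at 44452715 to 44454767, was listed at 0 in both E12.5 libraries and in DMSO E14.5. It read 1.32 and 8.10 TPM in DMSO at E16.5 and E18.5, and 0.432, 4.75 and 9.61 TPM in CPF from E14.5 to E18.5. The CPF value at E14.5 rests on about 5 reads, and 3 reads would be worth 0.274 TPM in the DMSO library of that stage, so the difference at E14.5 was barely above what the depth can show. Upk2 rose by 3.30 ± 0.43 (limma adjusted p = 0.000682).

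Summed over the 4 genes, uroplakins went from 1.30 to 122 TPM in DMSO kidneys and from 2.56 to 119 TPM in CPF kidneys, while keratins went from 193 to 353 TPM and from 210 to 637 TPM. Scaling to coding transcripts multiplies the E12.5 and E18.5 sums by 0.9232 and 1.3 in DMSO and by 0.9405 and 0.938 in CPF. The E18.5 keratin sums are then closer together and the uroplakin sums further apart, with DMSO the higher. The order Krt18, Krt8, Krt7, Krt19 held in 6 of the 8 libraries. In CPF E14.5 and CPF E16.5, Krt19 stood above Krt7. By E18.5 Upk3a had passed Krt7 and Krt19 in the DMSO library, at 61.6 TPM against 59.0 and 47.8 TPM. At E18.5 Upk1a stood at 2.54 times its partner Upk2 in DMSO and at 2.01 times in CPF. Upk1b stood at 0.509 and 0.550 of its partner Upk3a. With 1 library per stage and treatment, neighbours in these orders have no replicate spread and were not tested.

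Other keratins and filaments were followed over the same interval. Of the 7 tested keratins of stratified epithelia limma called 0 between E12.5 and E18.5, none having an unadjusted p under 0.05, and their median was -0.24. Krt15 and Krt4, the highest of these, differed by -0.67 ± 1.22 and 1.07 ± 1.11. The simple keratins Krt20, Krt23 and Krt80 also gave 0 called genes in limma, with Krt20 at an unadjusted p of 0.0151. Krt20, the keratin of mature umbrella cells, differed by 1.17 ± 0.42, Krt23 by 0.23 ± 0.37 and Krt80 by 0.75 ± 0.41. Upk3b and Upk3bl, the remaining uroplakins, differed by 1.28 ± 0.63 and 1.53 ± 0.60, neither called. Among 8 other intermediate filament genes 5 fell, in the order of size Nefl and Nefm of neurons (-2.81 ± 0.53 and -2.36 ± 0.48), desmin (Des, -1.95 ± 0.36), lamin B1 (Lmnb1, -1.47 ± 0.30) and nestin (Nes, -1.20 ± 0.34), and vimentin (Vim), the filament of mesenchyme, differed by -0.40 ± 0.34. Desmosome genes, whose products anchor keratin filaments, were above 0 in 7 of 7 with a median of 0.89. Limma called 0 of them, and 3 had an unadjusted p under 0.05. Desmoplakin (Dsp) differed by 1.53 ± 0.48 (limma adjusted p = 0.0720) and plakoglobin (Jup) by 0.88 ± 0.55. These lists were not tested against the 8 genes.

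**Figure D3:**
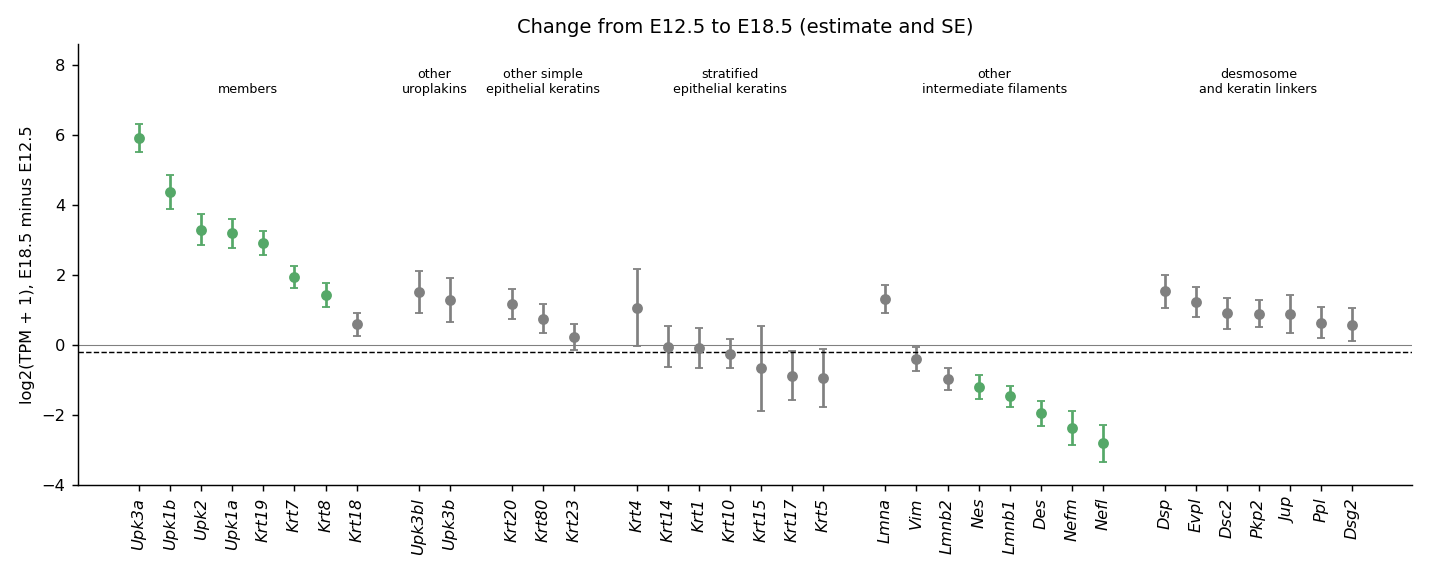
Estimated change from E12.5 to E18.5 on the log2(TPM + 1) scale (y axis; bars are SE, 8 libraries in the fit) for the 8 genes, at left as members, and for tested genes of 5 related lists, green where the limma adjusted p was under 0.05 and grey otherwise; the dashed line is the median of all tested genes, -0.21. The 4 uroplakins lie between 3.20 and 5.92, and 5 other intermediate filament genes are called below 0.

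Across the 4 stages, none of the 8 genes passed the comparison of CPF with DMSO kidneys, in which 0.161% of all tested genes passed (22 of 13677, with 0.154% higher and 0.00731% lower). In simulated data the same fit recovered 7.46% of true changes of 1 and 67.2% of changes of 2 on the log2 scale. All 8 estimates were smaller than 1 in size, so passing none is not evidence of equal levels. By limma 3 of the 8 had an unadjusted p under 0.05 (Krt7, Krt19 and Upk1b), as did 1306 of all 13677 genes. The 3 became 2 with libraries scaled to coding transcripts and 1 with quantile normalization. Above 0 were 7 of the 8 estimates, as were 72.6% of all genes, and the median was 0.49 against 0.15 over all genes. Scaling to coding transcripts moved the median of all genes to -0.0078, and all 8 estimates kept their sign under it. It moved Krt8 to 0.28, Krt18 to 0.29, Upk1a to 0.16 and Upk3a to -0.39.

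Krt19 differed by 0.76 ± 0.24 (limma adjusted p = 0.258) and was higher in CPF at all 4 stages, by 1.71, 1.85, 2.34 and 1.24-fold in TPM. With libraries scaled to coding transcripts the E18.5 ratio turned to 0.898. Krt7 differed by 0.59 ± 0.23 (limma adjusted p = 0.411), with ratios of 1.17, 1.44, 1.46 and 2.13, of which the last was 1.54 on the coding scale. It was above DMSO at every stage on both scales. Krt8 and Krt18 differed by 0.45 ± 0.24 and 0.47 ± 0.23 (limma adjusted p = 0.603 and 0.567). Their ratios went together. From the earliest to the latest stage they were 0.996, 0.957, 1.99 and 1.87 for Krt8 and 1.09, 0.943, 1.98 and 1.80 for Krt18. On the coding scale the E16.5 ratios were 1.72 and 1.71 and the E18.5 ratios 1.35 and 1.30. Without the E16.5 pair the estimates of Krt8 and Krt18 fell to 0.28 ± 0.29 and 0.29 ± 0.28.

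Epcam, an adhesion protein of the whole renal epithelium, gives a scale for the keratins within each library. Its own ratio of CPF to DMSO was 0.929, 0.984, 1.67 and 2.02 from E12.5 to E18.5. Relative to Epcam, Krt8 stood at 0.744, 0.752, 1.41 and 0.936 in CPF and at 0.694, 0.773, 1.19 and 1.01 in DMSO. At E18.5 Krt8, Krt18 and Krt7 per Epcam lay close together in both treatments (0.936, 0.993 and 0.539 in CPF against 1.01, 1.12 and 0.509 in DMSO), and Krt19 per Epcam was 0.255 in CPF against 0.413 in DMSO. At E16.5 all but Krt7 were higher per Epcam in CPF, with Krt19 at 0.752 against 0.537. Relative to Cdh1, the epithelial cadherin, Krt8 at E18.5 stood at 1.075 in CPF against 2.055 in DMSO, so the E18.5 comparison depends on the gene used as the scale. Both scales were chosen after the keratin values were known.

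Among these 4 uroplakins, Upk1b had the largest difference, 0.85 ± 0.34 (limma adjusted p = 0.426). It was 4.98-fold higher in CPF at E14.5 and 1.01-fold at E18.5, where the coding scale gave 0.731. Without the E14.5 pair its estimate fell to 0.47 ± 0.43. Upk1a and Upk2 differed by 0.32 ± 0.29 and 0.51 ± 0.31 (limma adjusted p = 0.824 and 0.670). At E16.5 Upk2 was 3.61-fold higher in CPF, at about 63 against 21 reads, and at E18.5 1.19-fold, or 0.857 on the coding scale. Without the E16.5 pair, Upk1a and Upk2 stood at 0.19 ± 0.37 and 0.25 ± 0.35. Upk3a was the only one of the 8 below 0, at -0.22 ± 0.28 (limma adjusted p = 0.886), with ratios of 0.477, 0.788 and 0.939 from E14.5 to E18.5. The E14.5 ratio rests on about 6 reads in CPF and 12 in DMSO. On the coding scale these ratios were 0.458, 0.681 and 0.677, and the estimate was -0.48 with quantile normalization. With both the E14.5 and the E16.5 pair left out, an alternative chosen after seeing the data, Krt7, Krt8, Krt18 and Krt19 stood at 0.65, 0.45, 0.48 and 0.49, and Upk1a, Upk1b, Upk2 and Upk3a at 0.071, 0.42, 0.11 and -0.045, with standard errors of 0.55 to 0.71.

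At single stages, with 1 library on each side and no test, few of the 8 genes were more than 2-fold apart on the log2(TPM + 1) scale. None were at E12.5, where 6.04% of all genes were that much higher in CPF and 2.50% lower. Upk1b was at E14.5 (6.18% of all genes higher), and Krt19 and Upk2 were at E16.5 (7.44%). At E18.5 only Krt7 was, at a stage when 20.4% of all genes were that much higher, and on the coding scale, where 9.21% were, none of the 8 was. Genes more than 2-fold lower numbered 0 of the 8 at each stage, against 2.50, 2.16, 3.20 and 2.02% of all genes. On the coding scale the higher calls were those of the deposited scale except Krt7 and the lower calls again 0, against 6.02, 5.65, 5.88 and 9.21% of all genes higher and 2.16, 2.39, 4.47 and 3.95% lower. The medians of the 8 were 0.17, 0.48, 0.84 and 0.27 from E12.5 to E18.5, and those of all tested genes -0.12, 0.028, 0.13 and 0.53. On the coding scale the E18.5 medians were -0.18 for the 8 genes and 0.14 for all genes.

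**Figure D4:**
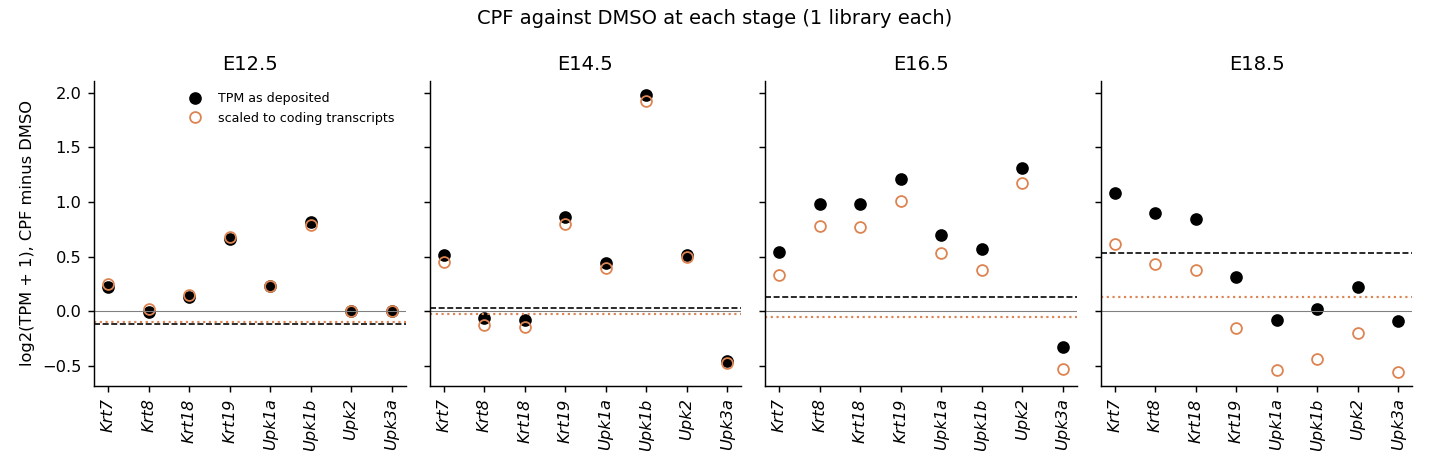
CPF minus DMSO on the log2(TPM + 1) scale (y axis) for the 8 genes (x axis) at each stage, 1 library on each side, from TPM as deposited (black) and scaled to coding transcripts (open orange); the dashed and dotted lines are the medians of all tested genes on these 2 scales. At E18.5 all 8 open circles lie below the black ones, 5 of them below 0, and at E14.5 Upk1b stands highest at 1.98.

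Genes of other epithelia and organs, and of ureteric mesenchyme and smooth muscle, moved with several of these differences. Stratified keratins summed, in stage order, to 26.2, 63.2, 391 and 12.45 TPM in CPF kidneys, against 11.2, 12.4, 13.4 and 11.1 TPM in DMSO kidneys. Between treatments 7 of 7 tested were above 0, as were 72.6% of all genes, with a median of 1.77. Limma called 0 of them, and Krt5, Krt14, Krt15 and Krt17 had an unadjusted p under 0.05. Krt5, also planned as a urothelium marker, read 6.055, 8.70, 36.3 and 0.910 TPM in CPF kidneys and at most 0.451 TPM in DMSO kidneys. Krt13 and Krt15, keratins of stratified linings such as the oesophagus, alone read 149 and 122 TPM in CPF E16.5 and at most 0.432 and 11.4 TPM elsewhere. Which lining these keratins came from was not tested. Exocrine pancreas genes, which lie in a ductal organ rich in Krt7, Krt8, Krt18 and Krt19, summed to 1826 TPM in that library and to 36.6 to 63.7 TPM in the 7 others. There 8 of their 10 genes reached 1 TPM, with the acinar factor Ptf1a at 8.92 TPM and at 0 in all other libraries. Gut genes summed to 91.8 TPM in CPF E16.5 and 15.5 TPM in DMSO E16.5, with 7 of 10 genes at 1 TPM or more in the CPF library, and the gut factor Cdx2 read 2.34 TPM in it and at most 0.307 TPM elsewhere. The gut sum of CPF E18.5 was 92.9 TPM, but 86.4 TPM of it was Vil1, a brush border gene that proximal tubule also expresses, and 2 of 10 genes reached 1 TPM. Genes of ureteric mesenchyme and smooth muscle summed to 1273 TPM in CPF E16.5 and 272 TPM in DMSO E16.5. Of these Acta2, the smooth muscle actin, was called between treatments (1.501 ± 0.218, limma adjusted p = 0.0222). Its CPF values were higher at every stage, at 74.2, 65.8, 515 and 333 TPM against 28.7, 26.1, 117 and 141 TPM in DMSO. The call is from TPM as deposited. Of all genes, limma called 1 between treatments with libraries scaled to coding transcripts and 0 with quantile normalization. Adrenal cortex genes summed to 766 TPM in both CPF E14.5 and CPF E16.5, against 104 and 118 TPM in DMSO, and gonad and germ cell genes to 322 TPM in CPF E14.5 against 26.9 TPM. The E16.5 sums go with the highest levels of Krt8, Krt18 and Krt19 in the series and with the Upk2 difference at E16.5. Their part in those results was not tested.

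Upk3b, a uroplakin of mesothelium, read 34.6 and 27.8 TPM in CPF E14.5 and E16.5 and 2.04 to 7.00 TPM in the 6 other libraries. Of the other mesothelial genes, Lrrn4 (12.3 and 9.33 TPM against 0.157 to 3.01) and Bnc1 (16.7 and 6.38 TPM against 0.0521 to 1.83) were also highest in these libraries. Msln read 3.76 and 6.83 TPM in them and 5.13 and 4.91 TPM in the CPF and DMSO libraries of E18.5, so its CPF E14.5 value was not among the highest. Gata5 read 3.05 and 5.503 TPM, with 4.20 TPM in DMSO E12.5. Wt1 was lower in CPF than in DMSO at both stages, at 83.2 against 102 TPM and 76.0 against 104 TPM. The 7 mesothelial genes with 1 transcript summed to 125 to 404 TPM in the CPF libraries, against 125 to 193 TPM in the DMSO libraries, most of it from Wt1 and Podxl, which podocytes also express. Their highest sum was in CPF E18.5, where Podxl read 281 TPM. Upk1b, which mesothelium can also express, stood 4.98-fold higher in CPF E14.5. Upk2 and Upk3a were at about 5 and 6 reads in the same library. Liver genes summed, in stage order, to 186, 4682, 5378 and 874 TPM in CPF kidneys, against 13.8, 935, 62.4 and 39.0 TPM in DMSO kidneys. Hepatocytes carry Krt8 and Krt18. How much of any keratin or uroplakin level came from these tissues was not tested.

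**Figure D5:**
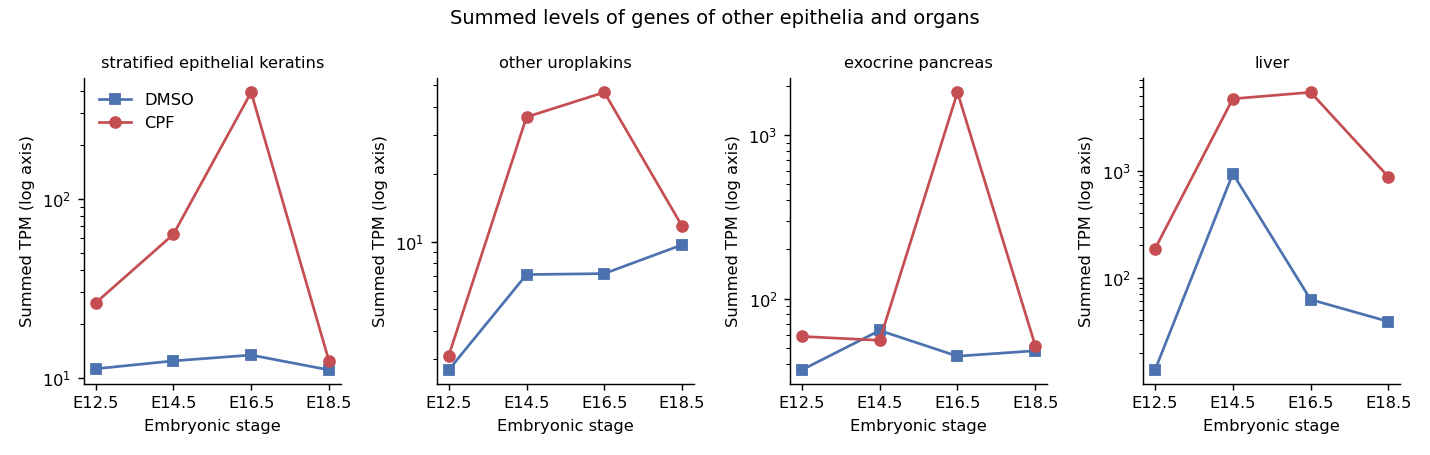
Summed TPM (y axis, logarithmic) of stratified keratins, of Upk3b and Upk3bl (other uroplakins), of exocrine pancreas genes and of liver genes, by embryonic stage (x axis) in DMSO (blue squares) and CPF (red circles), 1 library per point. The pancreas sum stands at 1826 TPM in CPF E16.5 only. The stratified keratin sum is highest there, at 391 TPM, and is higher in CPF than in DMSO at every stage, as is the liver sum.

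The slope over embryonic day did not pass the test for a difference between treatments in any of the 8 genes, nor in any tested gene: 0% of 13677 were called by limma, with 3615 at an unadjusted p under 0.05, and 0 of the 8 among them. Krt8 had the largest positive difference, 0.19 ± 0.11 per day (limma adjusted p = 0.323), and Upk1b the largest negative one, -0.19 ± 0.16 (limma adjusted p = 0.466). Without CPF E12.5 the Upk1b value was -0.52 ± 0.11 (limma adjusted p = 0.0861), and without CPF E18.5 it was -0.044 ± 0.20 (limma adjusted p = 0.926). The median was 0.033 for the 8 genes and 0.11 for all genes. On the coding scale the median of all genes was 0.038, with 1622 genes at an unadjusted p under 0.05 by limma. Quantile normalization gave 0.01 and 1374 genes. Krt8 stood at 0.11 ± 0.11 on the coding scale and 0.077 ± 0.12 with quantile normalization, so these slope differences depend on the scaling.

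The epithelium that gives rise to the collecting system was followed by its own genes. Of 14 tested ureteric bud and collecting duct genes, 3 rose from E12.5 to E18.5, all of the mature or later duct: the water channels Aqp2 (6.23 ± 0.51) and Aqp3 (4.19 ± 0.43) and the homeobox gene Emx1 (3.85 ± 0.54), by limma with adjusted p of 3.55e-05, 0.000133 and 0.00114. The bud gene Hoxb7 differed by -0.019 ± 0.33. At E18.5 Aqp2 read 149 TPM with CPF against 42.2 TPM with DMSO, while Upk3a read 57.8 and 61.6 TPM. Between treatments limma called 0 genes of this list, of which 1, Aqp3, had an unadjusted p under 0.05, and its median there was 0.10. Of 10 tested nephron tubule and podocyte genes, limma called 7 higher at E18.5 than at E12.5, against 4.67% of all genes. Their median was 4.57, against 3.06 for the 8 keratins and uroplakins. Those with 1 transcript summed to 2608 TPM in CPF E18.5 and 493 TPM in DMSO E18.5. Between treatments all 10 were above 0 and 0 called. Of 10 tested nephron progenitor genes 9 were below 0 between treatments and 0 called. Neither list was tested against the 8 genes.

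By Pearson correlation over the 8 libraries with the mean standardised course of the 4 keratins, the genes most alike among 9559 included Lmna (r = 0.993), Galnt12 (0.986), Srpx (0.984) and Vstm4 (0.982). Lmna encodes lamins A and C, has 3 RefSeq transcripts and is therefore a listed value only, at 3.36 to 17.7 TPM. For the 4 uroplakins the most alike were S100a1 (r = 0.974), AU021092 (0.966), Sprr1a (0.963), Defb1 (0.962) and G0s2 (0.959). Sprr1a, a cornified envelope protein of stratified epithelia, read 0.102, 0, 8.03 and 21.2 TPM in DMSO and 0.384, 2.38, 16.1 and 21.2 TPM in CPF. These values describe likeness among 8 libraries that share stage and scaling, and carry no test.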

How the data were processed

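Total RNA (2 μg per library) of 8 embryonic kidney samples was sequenced. The submitters' processing notes name Trimmomatic (read trimming), STAR (alignment) and mm10, with no versions or settings. The step from alignments to transcript values is not named there. The authors deposited TPM for 32862 RefSeq transcripts in each library. Transcripts were summed per symbol to 24151 genes, 52 transcripts with symbols turned into dates or numbers being restored from the RefSeq table. TPM keeps no depth; 1 read was estimated from the steps of low values (64.3 to 67.4% of them whole within 0.02).

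Tests used limma 3.58.1 in R 4.3.3 on log2(TPM + 1), with trend and robust moderation, for genes with at least 1 TPM in 2 libraries, Benjamini-Hochberg over 13677 genes, calls under 0.05. Stage and agent formed 1 fit (3 residual degrees of freedom); slopes used agent by embryonic day (4 residual degrees of freedom). A fold change on this scale understates low genes. The fits were tested on simulated data. Python 3.11.15 drew figures and searched promoters. Libraries were scaled to coding transcripts by setting the NM sum of each to the mean of the 8 sums.

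The members and gene lists were chosen with earlier results of these data known. Named genes are the 8 members, called genes of each list or else its 2 highest, and the 5 genes most alike to each family with a mean of at least 5 TPM (1 of them is not reported here); Krt13, Ptf1a, Cdx2, Lrrn4, Bnc1, Podxl, Epcam, Cdh1, Krt20, Upk3b, Hoxb7, Grhl3, Foxa1, Esrp2, Vil1, Gata5, Ahsg and Alb beyond this were chosen after their values were seen. Alternatives were the pseudocount, filters, scaling, moderation, stage terms and left-out libraries. Protein features were not used here.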

Additional observations from a re-analysis of the deposited data

How the results depend on the processing

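Of the 8 genes, 0 passed between treatments and 0 in slope under all alternatives run, and 6 or 7 passed between E18.5 and E12.5, with Krt8 the gene lost (without the filter on low values, without trend and robust moderation, without CPF E12.5, without CPF E18.5, and without CPF E14.5 and CPF E16.5, the last chosen after seeing the data). Counts over all genes moved more. Between treatments, limma called 22 genes, and 83 with a pseudocount of 0.1, 98 with the stricter filter, 4 without trend and robust moderation, 1 scaled to coding transcripts, and 34 without the E14.5 and E16.5 pairs; it called 0 without the filter, with quantile normalization, without a stage term and with day as a linear term (1537, 1485, 656 and 1262 at an unadjusted p under 0.05), and 25 to 221 with 1 stage pair left out (98 without E12.5, 221 without E14.5, 51 without E18.5). Between E18.5 and E12.5 it called 1149, and 394 without the filter and 608 to 1637 with 1 library left out (608 without CPF E12.5, 697 without CPF E18.5). Slope differences near 0 changed sign: Upk3a (-0.0071) to 0.016 with a pseudocount of 0.1, Upk2 (0.073) to -0.026 with quantile normalization, and with 1 library left out Krt19 ranged from -0.38 to 0.43, Upk1a ranged from -0.24 to 0.25, Upk2 ranged from -0.18 to 0.31 and Upk3a ranged from -0.17 to 0.25. At E12.5 the log2 ratio of Upk1b, 0.82, was 2.07 with a pseudocount of 0.1. This follows from its TPM there, 1.09 in CPF and 0.183 in DMSO, which are near or below the pseudocount of 1. The cause of the other shifts was not tested. Depth limits Upk2 and Upk3a at E12.5 and E14.5, where they rest on 0 to 12 estimated reads. The stage term pairs the CPF and DMSO libraries of a stage; the labels give no replicate numbers for a further block.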

Other observations

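Genes of the wider epithelial programme were followed as well. Of 13 tested epithelial adhesion genes and regulators, 12 were above 0 between E12.5 and E18.5, with a median of 0.74 against -0.21 over all genes, and 1 rose: Ehf, an ETS factor of epithelia (2.21 ± 0.43, limma adjusted p = 0.00730). Cdh1, the epithelial cadherin, differed by 1.79 ± 0.49 (limma adjusted p = 0.0543) and Epcam by 0.99 ± 0.33 (limma adjusted p = 0.0844). At E18.5 Cdh1 read 204 TPM in CPF and 56.9 TPM in DMSO, a ratio of 3.58 (2.58 scaled to coding transcripts), against 1.87 (1.35) for Krt8. All 13 were above 0 in CPF minus DMSO, with a median of 0.42, and limma called 0 (Ehf and Esrp2, 2 in all, had an unadjusted p under 0.05).

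Of 6 tested regulators known in urothelium, 0 passed in limma in either comparison. Grhl3, a grainyhead factor of umbrella cells, differed by 1.52 ± 0.44 between E12.5 and E18.5 (limma adjusted p = 0.0503, and the only one of the list with an unadjusted p under 0.05) and read 0.379, 1.25, 3.09 and 3.10 TPM in DMSO and 0.912, 4.49, 10.2 and 4.27 TPM in CPF kidneys. Gata3 and Klf5, the highest of the list, differed by 0.30 ± 0.48 and -0.55 ± 0.47. Foxa1 and Grhl3 had an unadjusted p under 0.05 between treatments (0.99 ± 0.32 and 0.89 ± 0.31). Listed zeros of genes with several RefSeq entries are not read as absence: Ahsg, a liver gene with 4 entries, is listed at 0 in CPF E16.5, where Alb read 2036 TPM.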
